A study of Mus musculus with 47 samples.

Results

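Collagen genes were followed in B78-D14 mouse melanoma cells and in the tumors grown from them. A gene was taken as a member if its mouse GENCODE symbol is Col, a number, a and a number and its biotype is protein-coding, which gave 44 of the 56748 genes in the count table. Of these chains, 11 are fibrillar, 6 are basement membrane chains of type IV collagen and 27 belong to other classes. The series asks what truncating edits of Mt-Nd5, a mitochondrial gene for a complex I subunit, do to melanoma cells and to the tumors they form.

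B78-D14 is an amelanotic derivative of the B16 melanoma line that lacks Cdkn2a, and the edited populations and their controls share that background. Edits were made with a mitochondrial cytosine base editor and gave isogenic cell populations, so replicates of a group share 1 edited population. The share of edited mitochondrial genomes, the heteroplasmy, is part of each group's name. The cultures were 4 of wild-type control cells and 4 of cells with the m.11,944 edit at 60%. The tumors were subcutaneous and untreated, and came from wild-type control cells (4 tumors), m.12,436 40% cells (7) and m.12,436 60% cells (7). All were grown from cells injected in Matrigel into young adult male C57BL/6 mice with an intact immune system. Tumor fragments were sequenced, so a tumor library mixes melanoma cells with host stroma, vessels and leukocytes, and fewer cells of a type cannot be told apart from less RNA per cell.

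Collagens are proteins in which 3 chains wind into a triple helix, and several genes can supply the chains of 1 molecule. Fibrillar collagens (types I, II, III, V, XI, XXIV and XXVII) form the ropes of connective tissue and are made mostly by fibroblasts. Type IV collagen forms the sheets under endothelium and epithelium, type VI forms beaded filaments around cells, type VII anchors epithelium to dermis, and type XVIII is a vessel-associated heparan sulfate proteoglycan. In skin tumors the fibrillar chains are the classic product of activated host fibroblasts, whereas type IV chains can come from tumor cells as well as from vessels.

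The stretches upstream of 4 chains are shown because the results below turn on those genes. Col24a1 was lower in m.12,436 60% tumors than in both other groups, Col13a1 was lower there than in 40% tumors, Col3a1 was the most abundant chain in tumors, and Col1a2 codes for a chain of type I collagen, which varied widely between tumors. RefSeq promoter windows (build GRCm38.p6, from 250 bases before the gene's start to 50 after it) were found for 35 of the 44 members, and Col1a1, Col2a1, Col4a3, Col5a2, Col9a3, Col12a1, Col14a1, Col22a1 and Col26a1 had none. Of each window the part before the start is given (1 base more for Col24a1, so that its motif is whole), 5′ to 3′ on the gene's strand in lower case, and capitals mark the 8-base cyclic-AMP response element TGACGTCA, the TATA-type hexamer TATAAA or the CCAAT box.
Col24a1, chr3:145292222-145292472, plus strand: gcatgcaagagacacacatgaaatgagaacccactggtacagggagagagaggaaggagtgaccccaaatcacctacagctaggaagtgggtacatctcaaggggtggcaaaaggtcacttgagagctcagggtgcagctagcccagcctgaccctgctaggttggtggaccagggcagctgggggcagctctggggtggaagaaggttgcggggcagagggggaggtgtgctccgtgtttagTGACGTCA
Col13a1, chr10:61979109-61979358, minus strand: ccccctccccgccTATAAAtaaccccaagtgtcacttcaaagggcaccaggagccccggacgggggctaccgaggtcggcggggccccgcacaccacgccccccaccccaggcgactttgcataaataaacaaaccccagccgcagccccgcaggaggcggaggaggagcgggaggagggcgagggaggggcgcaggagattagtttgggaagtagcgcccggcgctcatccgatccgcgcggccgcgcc
Col3a1, chr1:45311288-45311537, plus strand: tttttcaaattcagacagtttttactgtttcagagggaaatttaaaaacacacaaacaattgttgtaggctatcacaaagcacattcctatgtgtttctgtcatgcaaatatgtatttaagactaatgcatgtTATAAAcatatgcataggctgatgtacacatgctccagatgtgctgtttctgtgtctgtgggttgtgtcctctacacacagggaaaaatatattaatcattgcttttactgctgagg
Col1a2, chr6:4505368-4505617, plus strand: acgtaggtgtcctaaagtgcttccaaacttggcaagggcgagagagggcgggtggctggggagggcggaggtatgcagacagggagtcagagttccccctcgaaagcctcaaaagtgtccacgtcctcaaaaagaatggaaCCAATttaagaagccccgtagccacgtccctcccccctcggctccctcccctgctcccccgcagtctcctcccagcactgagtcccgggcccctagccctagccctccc
Both strands of the whole windows were searched. TGACGTCA, a palindrome, lay at bases 244 to 251 of the Col24a1 window and in no other member's, whereas 1.79% of the 32851 windows of all genes held it. TATAAA was in 5 of the 38 member windows and in 13.6% of all windows, and CCAAT in 13 of 38 and in 37.4%. No motif contains another, and a match is a description of letters only.

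The count columns do not carry the sample titles. Those headed high and low were read as the m.12,436 60% and 40% tumors from the study's own words and from the number of tumors, and all tumor comparisons rest on that reading. Total counts lay between 16475735 and 36173502 per library. Levels are in CPM, a gene's counts as a share of the library's, after TMM scaling of the library sizes, which was done separately for cells and tumors. Of the 7 pigment cell markers, Sox10, Dct, Tyr, Pmel and Mlana were under 1 CPM in every culture, whereas Mitf was at 8.02 to 22.9 CPM and Gpnmb at 22.6 to 200.1 CPM in control cells. Control tumors 2 and 3 stood apart from the other tumors in Dct and Sox10, though for tumor 2 not in the sum of the 7 markers (41.6 CPM, and 133.6 in tumor 3, against 24.4 to 73.6 in the other 16). They held 3.40 and 26.3 CPM of Dct and 1.90 and 9.58 CPM of Sox10, against at most 0.0449 and 0.141 CPM in the other 16 tumors. The same 2 libraries held the only reads of Col9a1 among the tumors (0.433 and 0.560 CPM), and control tumor 3 had the highest Col4a5 (3.23 CPM) and Col2a1 (9.88 CPM). Of all genes, 374 passed in m.12,436 60% against control tumors with these 2 (edgeR, adjusted p under 0.1) and 20 without them, when only control tumors 1 and 4 are kept. Leaving out control tumor 1, 2, 3 or 4 alone gave 125, 716, 66 and 724 genes, so the count does not depend on this pair only. Calls against control tumors are given with and without control tumors 2 and 3.

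The chains were split by their level in the control cultures. A chain was called host-only if it was under 1 CPM in all 4 control cultures. This held for 30 chains, of which 5 were fibrillar and 4 were type IV, and not for the other 14. Nearest to the limit were Col24a1 and Col2a1 inside it, with highest control values of 0.654 and 0.611 CPM, and Col11a1 and Col1a1 outside it, with 1.32 and 1.49 CPM. The split describes cultures, and whether melanoma cells express a host-only chain inside the animal was not tested. Host-only does not mean absent from the cells, since Col24a1 had 4 to 23 counts in the control cultures. Col22a1 reached 0.455 CPM in a control culture and at most 0.136 CPM in any tumor. Of the 30 host-only chains, 20 had enough reads in tumors for a test, as had all 14 others, so that 34 of 44 members were tested in tumors and 15 in cells. The 10 that were not tested in tumors (Col4a3, Col4a4, Col4a5, Col9a1, Col9a2, Col10a1, Col19a1, Col22a1, Col25a1 and Col26a1) were all host-only, and 13 chains stayed under 1 CPM in every tumor.

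In the control cells collagen counts were 0.426% ± 0.0730 (SD, n = 4) of all counts, and in control tumors 1.61% ± 0.103 (SD, n = 4). The makeup differed as well. Type IV chains made up 40.2% ± 11.9 of the collagen counts in control cells and 8.26% ± 1.28 in control tumors, whereas fibrillar chains made up 33.8% ± 6.36 and 62.9% ± 2.13 (SD, n = 4 each). These are values side by side, since cells and tumors were scaled apart and no test was planned between them. Host-only chains supplied 3.30% ± 0.962 of the collagen counts of control tumors. That share depends on the 1 CPM limit, which leaves Col1a1 and Col1a2 outside the host-only class. These 2 chains supplied 10.9% ± 5.27 of the collagen counts of control tumors and 0.0591% ± 0.0345 of those of control cells (SD, n = 4 each). The m.12,436 60% and 40% tumors had collagen shares of 1.64% ± 0.0860 and 1.57% ± 0.195 of all counts (SD, n = 7 each), within 1 SD of the control tumors.

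Per kilobase of exon, the level in control cells was highest for Col4a1, at 135 CPM per kb ± 19.2 (SD, n = 4). Col3a1 followed at 124.5 ± 47.6, then Col4a2 at 93.5 ± 11.3, Col18a1 at 88.5 ± 52.5 and Col8a1 at 28.9 ± 13.0. The spreads of Col4a1 and Col3a1 overlapped, as did those of Col4a2 and Col18a1, and with the length of the canonical transcript in place of the union of exons Col3a1 came first. In control tumors the order was Col3a1, at 732 CPM per kb ± 104 (SD, n = 4), Col18a1 at 285 ± 23.8, Col1a1 at 188 ± 111, Col6a1 at 152 ± 19.5 and Col4a1 at 110 ± 25.9. With canonical lengths the same 5 chains led, with 1353 CPM per kb for Col3a1, and Col6a1 stood ahead of Col1a1. Col1a1 and Col6a1 did not differ beyond their spreads.

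**Figure D1:**
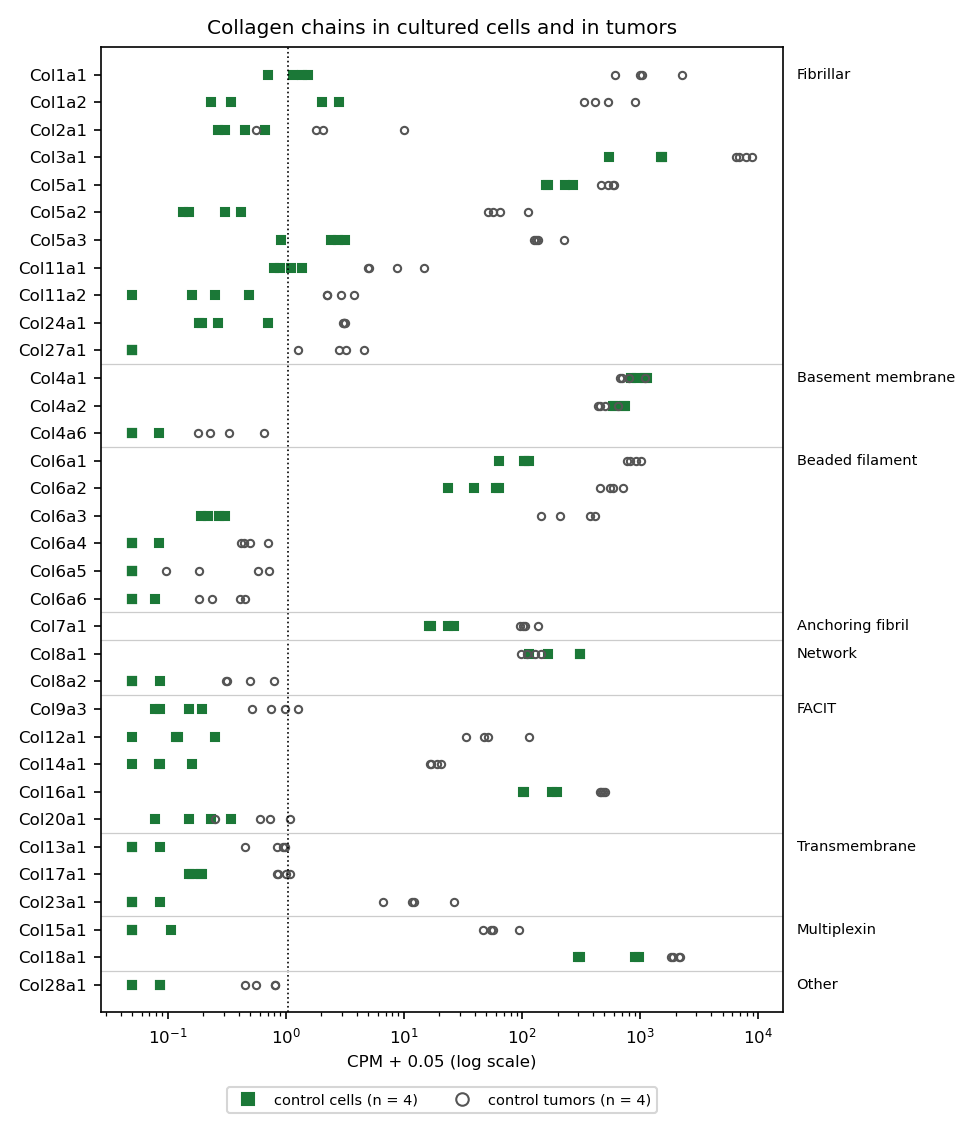
Level of each of the 34 collagen chains tested in tumors, by class, in 4 control cultures (squares) and 4 control tumors (circles), as CPM with 0.05 added, on a log axis. The dotted line is at 1 CPM. Col1a1 sits near 1 CPM in cells and between 616 and 2288 CPM in tumors, whereas the circles and squares of Col4a1, Col4a2 and Col8a1 overlap.

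Type I collagen, the main component of scar and dermis, was abundant in tumors and hardly made by the cells. Col1a1 was at 1.32, 1.09, 0.654 and 1.49 CPM in the control cultures, which is just over the limit for a host-only chain, and at 1046, 616, 2288 and 998 CPM in the control tumors. Col1a2, its partner chain, was at 0.182 to 2.78 CPM in control cells and 334 to 911 CPM in control tumors. Col3a1, the chain of type III collagen, was different, with 1540, 1508, 546 and 1526 CPM in the control cultures and 6933, 8860, 6438 and 7876 CPM in the control tumors. All cultures expressed Col3a1, and culture 3 stood well below the others.

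Type IV collagen was as high in the cells as in the tumors. Col4a1 was at 843, 940, 1102 and 1153 CPM in the control cultures and at 704, 678, 1099 and 799 CPM in the control tumors. Col4a2, which forms the common heterotrimer with Col4a1, was at 593 to 750 CPM in cells and at 438 to 654 CPM in tumors. The other 4 type IV chains, which form the networks of kidney, lung and smooth muscle, were at most 0.475 CPM in control cells, and in tumors reached at most 3.23 CPM. Col18a1 was at 299 to 986 CPM in the control cultures and 1841 to 2175 CPM in the control tumors, and Col15a1, the other multiplexin, was at no more than 0.0569 CPM in cells and at 47.1 to 94.4 CPM in tumors. Slc19a1, at 37.4 CPM over all tumors, overlaps the Col18a1 gene range on the opposite strand, and reads of the shared stretch could not be told apart if strand was not used.

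Type VI collagen was split between its chains. Col6a1 was at 64.0 to 113.9 CPM and Col6a2 at 23.8 to 64.3 CPM in control cells, but Col6a3, which completes the usual heterotrimer, was at most 0.255 CPM there. In control tumors the 3 chains were at 773 to 1028, 454 to 718 and 145 to 418 CPM. Type V collagen, which sets fibril diameter, showed a like split, with Col5a1 at 158 to 268 CPM and Col5a2 at no more than 0.364 CPM in control cells. Col5a1 was at 463 to 599 CPM and Col5a2 at 51.9 to 112 CPM in control tumors.

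The comparison of m.12,436 60% with control tumors asks whether the higher load of the edit goes with a change in matrix genes. Of the 34 chains, Col24a1 fell and Col14a1 rose by edgeR's quasi-likelihood test at a Benjamini-Hochberg adjusted p under 0.1 over all 16213 genes tested. That is 5.88% of the chains, beside 2.31% of all genes (0.962% rose and 1.34% fell). DESeq2 called 4 chains, beside 6.51% of all genes. At an unadjusted p under 0.05 there were 8 chains (23.5%), beside 16.3% of all genes. The median log2 fold change of the 34 chains was −0.09, beside 0.00 over all genes, and 23 chains had a negative value. Of the host-only chains 2 of 20 passed, and of the 14 chains made by the cells 0 passed, with the 8 chains under an unadjusted p of 0.05 split 4 and 4.

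Col24a1 (GRCm39 chr3:144998233-145257766, plus strand) encodes a minor fibrillar chain known from developing bone and eye. It was at 3.05, 3.07, 3.03 and 3.13 CPM in the control tumors, from 67 to 92 counts each. In the m.12,436 60% tumors it was at 0.964 CPM at the lowest, 1.34 at the median and 2.10 at the highest, from 28 to 45 counts. All 7 lay below all 4 controls, where 4.07% of all genes tested had groups that did not overlap. The log2 fold change was −1.10 ± 0.26 (SE), with an adjusted p of 0.0495, and an exact two-sided permutation test gave p = 0.00606, the smallest that 7 against 4 tumors allow. Without control tumors 2 and 3 the fold change was −1.11 and the adjusted p 0.348 (edgeR quasi-likelihood test). It was 0.126 without control tumor 1 and 0.198 without control tumor 3, with fold changes of −1.10 in both cases, so the call was lost without either.

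Col14a1 (chr15:55171140-55384199, plus strand), a fibril-associated collagen of dermis and tendon, was at 19.0, 16.7, 17.0 and 20.6 CPM in the control tumors. The m.12,436 60% tumors had 19.8 CPM at the lowest, 26.5 at the median and 31.3 at the highest, and 6 of the 7 lay above every control. The log2 fold change was 0.51 ± 0.14 (SE), with an adjusted p of 0.0953 (edgeR quasi-likelihood test). This call lay close to the threshold: it was lost in 12 of 21 alternative settings. These were a fit of all genes, a threshold of 0.05, the fits without control tumor 1, 2 or 3 or 60% tumor 1, 2, 3, 4, 6 or 7 (adjusted p from 0.103 to 0.346), and the fit without control tumors 2 and 3 together, which gave 0.39 and an adjusted p of 0.569.

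Col2a1, the chain of cartilage collagen, had the third smallest p but did not pass (log2 fold change −2.31 ± 0.73, edgeR adjusted p = 0.136). Its control values were 2.02, 1.77, 9.88 and 0.513 CPM and overlapped those of the 60% tumors (0.453 to 1.24 CPM), of which 2 lay below every control. The fold change was −0.999 without control tumor 3, the highest, and −0.82 without control tumors 2 and 3 (edgeR adjusted p = 0.715 and 0.825), and it passed in 3 of 20 alternative settings. Col7a1, the anchoring fibril chain, was at 106, 97.0, 103 and 135 CPM in the control tumors and at 127 to 190 CPM in the 60% tumors, with a log2 fold change of 0.43 ± 0.14 and an edgeR adjusted p of 0.154, or 0.30 ± 0.19 without control tumors 2 and 3.

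**Figure D2:**
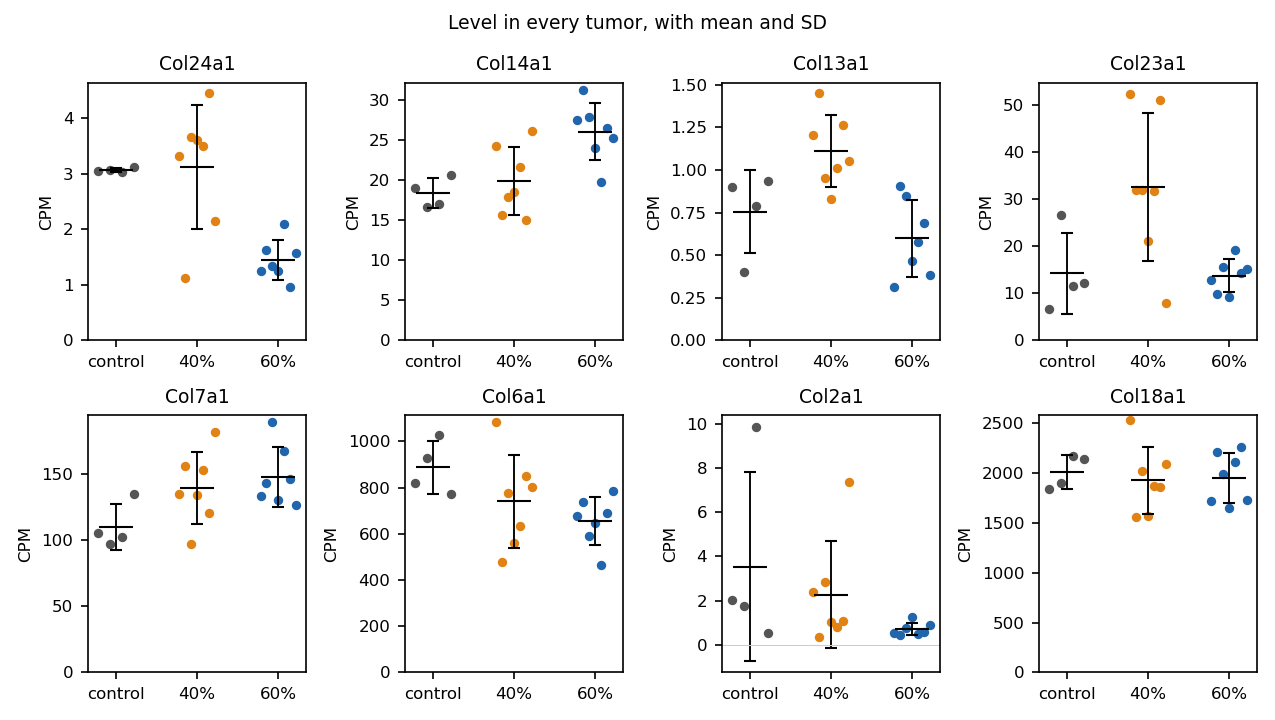
CPM of 8 collagen chains in every tumor (points), with the mean and SD of each group (bars), in 4 control, 7 m.12,436 40% and 7 m.12,436 60% tumors. The 60% points of Col24a1 all lie below the control points, whereas those of Col13a1 and Col23a1 lie within the control range or next to it and the 40% points reach higher.

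The abundant chains did not pass the test in this comparison. For Col1a1 the log2 fold change was −0.44 ± 0.41 (SE), for Col1a2 −0.28 ± 0.42 and for Col5a2 −0.05 ± 0.32, and all 3 turned positive without control tumor 3. For Col3a1 it was 0.25 ± 0.14 and for Col5a1 0.15 ± 0.10. The edgeR adjusted p values of these 5 chains lay between 0.375 and 0.959. Among the basement membrane chains Col4a1 had −0.32 ± 0.15 and Col4a2 −0.22 ± 0.14, and for the multiplexins Col15a1 and Col18a1 the values were 0.04 ± 0.22 and −0.04 ± 0.12, both of which change sign when single tumors are left out. Col6a1 and Col6a2 were lower by a similar amount, at −0.44 ± 0.17 and −0.47 ± 0.20, with edgeR adjusted p values of 0.226 and 0.259, whereas Col6a3 had 0.30 ± 0.26. Only when the 2 groups were fitted alone did Col6a1 pass (adjusted p = 0.0764).

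Between m.12,436 40% and control tumors no chain passed. Nor did any of the 16213 genes (0.0%) by edgeR's quasi-likelihood test, although DESeq2 called 5 genes (0.0308%). At an unadjusted p under 0.05 there were 2 chains of 34 (5.88%) beside 5.09% of all genes. They were Col23a1, a transmembrane collagen, with a log2 fold change of 1.19 ± 0.43 (SE), and Col7a1, with 0.35 ± 0.14. Col13a1, another transmembrane chain found at cell adhesions, was next with 0.57 ± 0.28. The edgeR adjusted p was 0.924 for each of the 3. Col24a1, in the same comparison, had a log2 fold change of 0.02 ± 0.26, with 5 of the 40% tumors above all controls and 2 below.

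The third comparison set the 2 loads of the m.12,436 edit against each other. It shares the 60% tumors with the first comparison, so its values are not independent of those above. Col24a1 and Col13a1 were lower in the 60% tumors at an adjusted p under 0.1 (edgeR quasi-likelihood test), which is 5.88% of the 34 chains beside 1.81% of all genes (0.814% higher and 0.993% lower). DESeq2 called 4 chains, beside 4.59% of all genes. At an unadjusted p under 0.05 there were 10 chains (29.4%), beside 14.1% of all genes. All 10 were among the 20 host-only chains tested, and 0 among the 14 chains made by the cells. The difference between these counts was not tested. Some host-only chains lay near the floor, such as Col4a6 (mean 0.768 CPM in 60% and 0.329 CPM in 40% tumors) and Col6a5 (0.147 and 0.492 CPM). Such chains can meet the filter on low counts through the group where they are higher. The counts therefore cannot decide whether host-only chains differed more. Fold changes had a median size of 0.54 on the log2 scale for host-only chains and 0.11 for the others, and their median SE was 0.28 and 0.13, so that the host-only chains were also measured with less precision.

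Col24a1 was at 1.12 CPM at the lowest, 3.49 at the median and 4.46 at the highest in the 40% tumors. The 60% range of 0.964 to 2.10 CPM thus overlapped with it through 40% tumor 2, the tumor with the lowest summed fibroblast markers (1045 CPM). In that tumor Lum, Dcn, Fap and Pdgfra were the lowest of the 40% group, whereas Thy1 and Mfap5 of the same list were the highest. The part of these markers in the Col24a1 value of 40% tumor 2 was not tested. The log2 fold change was −1.12 ± 0.23 (SE), with an adjusted p of 0.0247 (edgeR quasi-likelihood test), and an exact permutation test gave p = 0.00758. It stayed below 0.1 without any single tumor. Col13a1 (chr10:61674015-61814940, minus strand) was at 0.829, 1.06 and 1.45 CPM (lowest, median and highest) in the 40% tumors, from 14 to 36 counts. In the 60% tumors it was at 0.313, 0.577 and 0.905 CPM, from 7 to 21 counts, and 5 of these lay below all 40% tumors. Its log2 fold change was −0.89 ± 0.24, with an adjusted p of 0.0890 (edgeR quasi-likelihood test) that rose above 0.1, to between 0.104 and 0.176, without any 1 of 60% tumors 1, 4, 5 and 7 and 40% tumors 1, 2, 6 and 7.

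Col23a1 had the third smallest p. It was at 7.97, 31.8 and 52.2 CPM (lowest, median and highest) in the 40% tumors and at 9.16, 14.2 and 19.2 CPM in the 60% tumors. The log2 fold change of −1.25 ± 0.35 had an edgeR adjusted p of 0.114, which was 0.0294 without 40% tumor 7, the lowest of its group, and 0.0901 without 40% tumor 4. Both Col13a1 and Col23a1 had positive fold changes in the 40% tumors against controls, whereas in the 60% tumors against controls they had −0.32 ± 0.29 and −0.07 ± 0.41. Col14a1 was higher in the 60% than in the 40% tumors by 0.39 ± 0.12, which missed the threshold (edgeR adjusted p = 0.130). Col3a1, Col4a1 and Col18a1 differed between the 2 loads by 0.20 ± 0.12, −0.11 ± 0.13 and 0.02 ± 0.10.

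**Figure D3:**
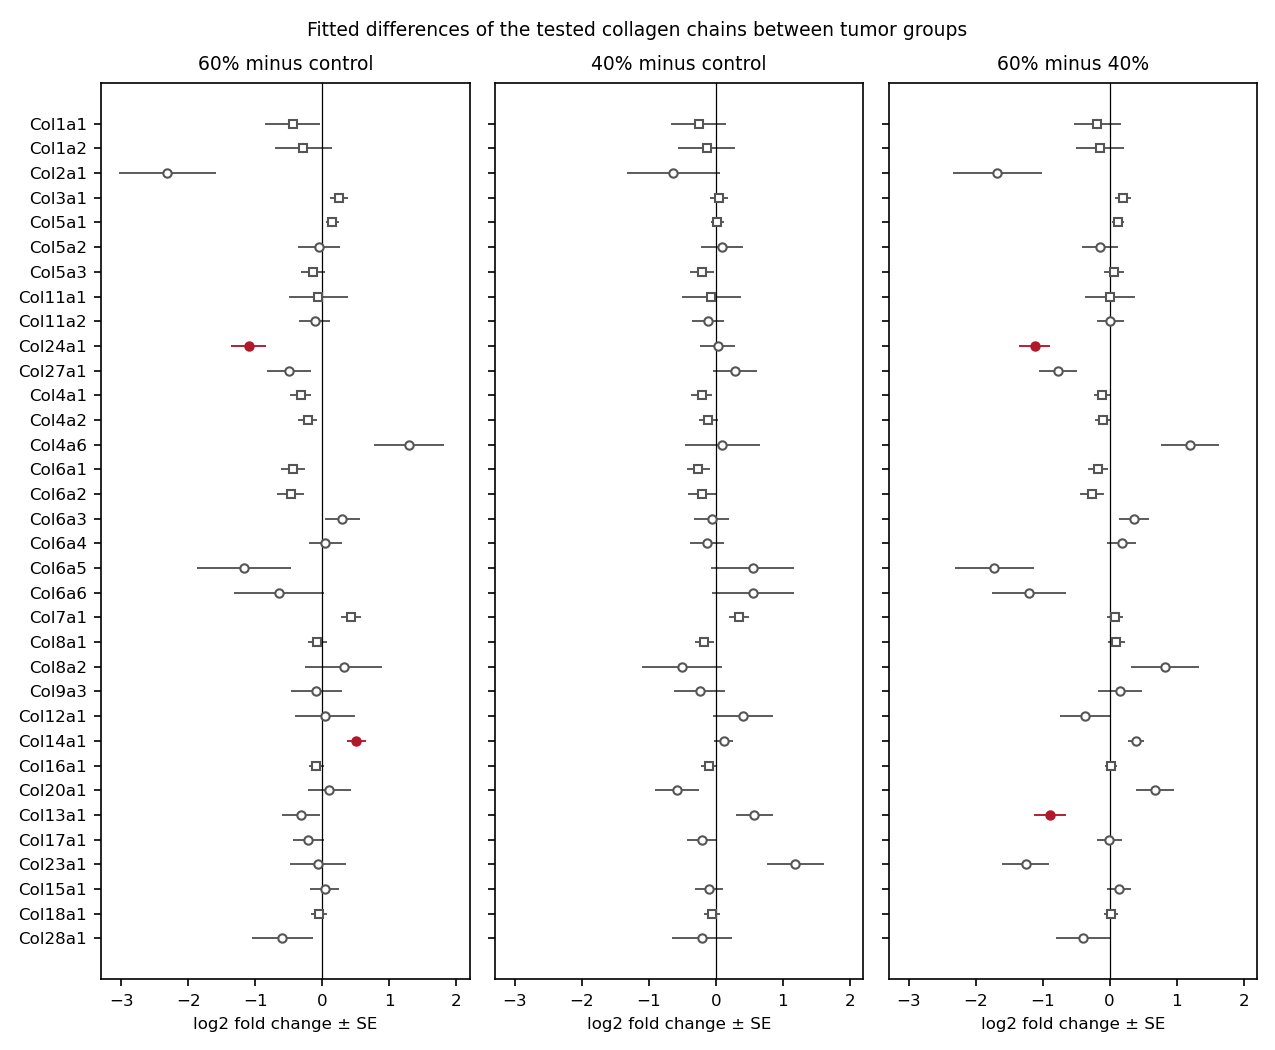
Log2 fold change with its SE (edgeR) of the 34 tested collagen chains in 3 comparisons of tumor groups, ordered by class from fibrillar at the top. Filled red symbols passed an adjusted p of 0.1, circles are host-only chains and squares are chains made by the cells. Col24a1 is the only chain filled both against controls (−1.10) and against the 40% tumors (−1.12).

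Single tumors of a group differed widely in type I collagen, and the chains did not move as 1 block. Over the 18 tumors Col1a1 spanned 294 to 2288 CPM, a ratio of 7.78 between the highest and the lowest, and Col1a2 a ratio of 8.67, whereas for Col3a1 it was 2.28, for Col5a1 1.51 and for Col18a1 1.63. Among all 18 tumors, the lowest Col1a1 values were those of m.12,436 60% tumors 5 and 6 (294 and 442 CPM), where the other 5 of that group lay between 955 and 1240 CPM. In the same 2 tumors Col1a2 (105 and 191 CPM), Col5a2 (30.5 and 37.3) and Col12a1 (30.4 and 31.9) were the lowest of the group as well. Col3a1, in contrast, was highest in these 2 of the group. They also had the highest summed fibroblast markers of the group (3223 and 3104 CPM, against 2325 to 2488 in the other 5). The members of that list differed, since Lum, Dcn, Fap and Pdgfra were highest of the group in these 2 tumors and Thy1 and Mfap5 lowest. The leukocyte markers of the 2 tumors were the lowest of the group (89.1 and 85.6 CPM, against 104.5 to 165). The part of all these markers in the collagen values was not tested.

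These relations were computed over the 18 tumors on log2 CPM, as deviations from each tumor's group mean, for 12 pairs of genes chosen after their values were seen. Col1a1 and Col1a2 moved together, with Pearson's r = 0.972 and Spearman's rho = 0.981. For Col1a1 and Col5a2 they were 0.939 and 0.969, and for Col1a1 and Col12a1, a fibril-associated chain, 0.794 and 0.814. Col1a1 and Col3a1 moved against each other, with r = −0.654 and rho = −0.734 (permutation p = 0.00264 and 0.00077, adjusted over the 12 pairs 0.00352 and 0.000924). All of these had adjusted permutation p values at or below 0.00352, and 1e-05 was the smallest unadjusted p that 100000 resamplings could give. Without the 2 tumors farthest from the median of Col1a1, r was 0.970 with Col1a2, 0.922 with Col5a2, 0.758 with Col12a1 and −0.539 with Col3a1, and within the 60% and the 40% tumors alone the last was −0.864 and −0.490.

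Of the 10 fibroblast markers 3 were compared with Col1a1. Thy1, which T cells also express, rose and fell with Col1a1 (r = 0.807, rho = 0.833), but Lum and Dcn, proteoglycans of the fibril surface, moved against it (r = −0.628 and −0.605, rho = −0.837 and −0.717). For other markers of the list no correlation was computed. Mfap5, like Col1a1, was lowest of its group in 60% tumors 5 and 6 and highest in 40% tumor 2. Fap and Pdgfra were highest in 60% tumors 5 and 6 and lowest in 40% tumor 2. Col3a1 moved with Lum, with r = 0.901 and rho = 0.831. That value rests partly on 40% tumor 2, which had the lowest Col3a1 (4957 CPM), Lum (91.2 CPM) and Dcn (459 CPM) of all 18 tumors. Without it and 60% tumor 5, the farthest from the median of Col3a1, r was 0.784, and for Thy1, Lum and Dcn with Col1a1 the values without the 2 farthest tumors were 0.745, −0.565 and −0.537. The adjusted permutation p values of these pairs lay between 2e-05 and 0.00693. No batch is given in the labels, so the relations could be recomputed only within groups.

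**Figure D4:**
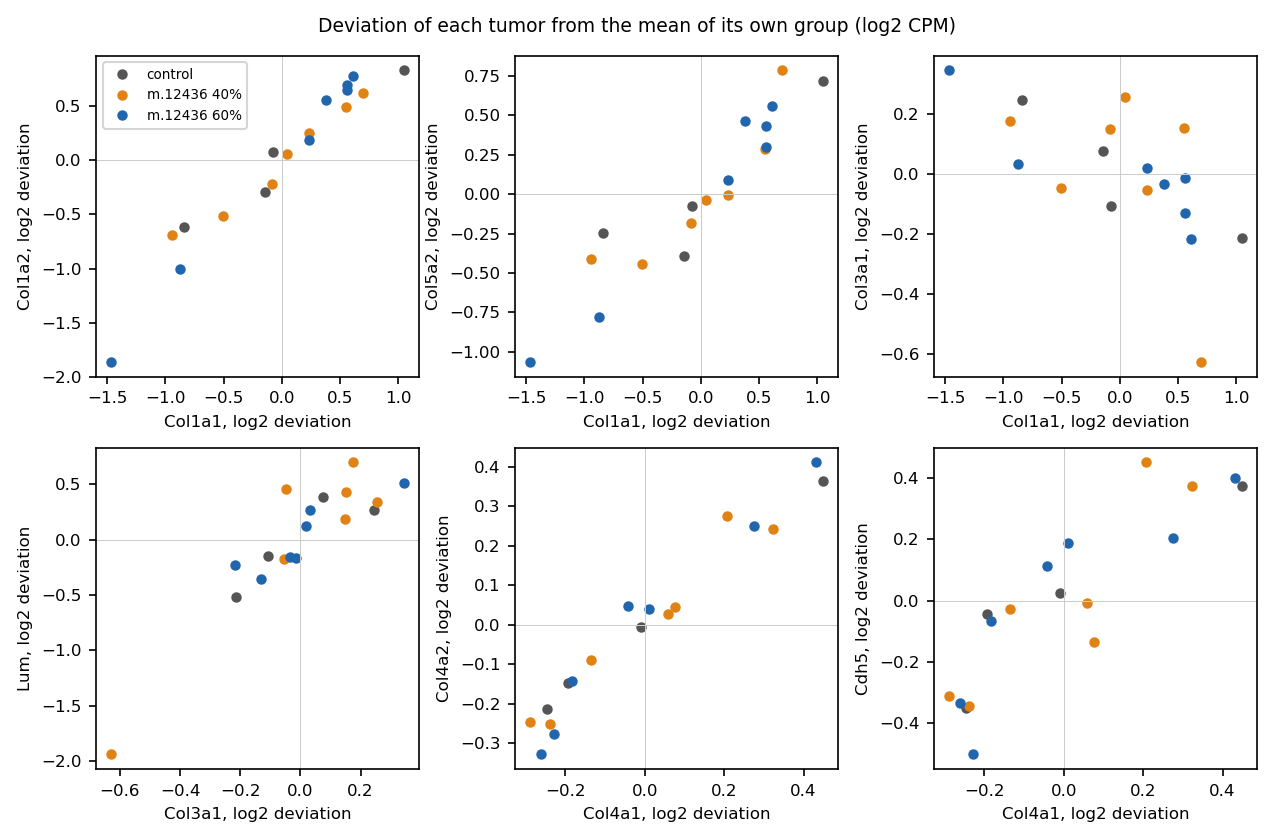
Deviation of each of the 18 tumors from the mean of its own group, in log2 CPM, for 6 pairs of genes, with control tumors in grey, m.12,436 40% in orange and m.12,436 60% in blue. Points of Col1a1 against Col1a2, Col1a1 against Col5a2 and Col4a1 against Col4a2 follow a rising line, and those of Col1a1 against Col3a1 a falling one.

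Chains that share a molecule were often tied closely. Col4a1 and Col4a2 had r = 0.979 and rho = 0.942 (r = 0.968 without the 2 farthest tumors), and their ratio per kilobase of canonical transcript was 1.62 ± 0.0671 (SD, n = 4) in control, 1.51 ± 0.0574 (n = 7) in 60% and 1.51 ± 0.0553 (n = 7) in 40% tumors. Both genes start head to head on chromosome 8 and their GENCODE ranges overlap by 356 bases. Whether reads were counted by strand is not given in the sources used here, so reads of the overlap could be assigned to neither or to either. Col4a1 also moved with Cdh5, the cadherin of endothelial junctions (r = 0.881, rho = 0.860, adjusted permutation p = 2e-05 and 4.8e-05, r = 0.854 without the 2 farthest tumors). The endothelial marker list summed to 253 to 388 CPM in control, 195 to 313 CPM in 60% and 214 to 371 CPM in 40% tumors, and to at most 0.768 CPM in cells. Its part in the Col4a1 values was not tested.

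Col6a1 and Col6a2 were as closely tied (r = 0.971, rho = 0.963, r = 0.963 without the 2 farthest tumors), but Col6a3, which assembles with both, was not tied to Col6a1 in these tumors (r = 0.0565, rho = 0.110, permutation p = 0.825 and 0.663, r = 0.150 without the 2 farthest tumors). The cultured control cells expressed Col6a1 and Col6a2 and held Col6a3 under 1 CPM. The part of this in the missing tie was not tested, nor was which cells held these RNAs in the tumors. In 60% tumor 5 Col6a1 and Col6a2 were at their lowest of all tumors (467 and 265 CPM), whereas Col6a3 there was at 378 CPM, within the 241 to 473 CPM of its group.

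In cultured cells the m.11,944 60% edit was compared with control. The comparison rests on reading the count columns named 54 as the m.11,944 60% cells, which follows from a heading in the study's source data and the number of columns and not from a sample label. By edgeR's quasi-likelihood test without a block 5 of 12930 genes (0.0387%) passed, and 0 of the 15 collagen chains tested, with 2 at an unadjusted p under 0.05 (13.3%, beside 4.11% of all genes). Same-numbered cultures deviated from their group means together (correlations across genes of 0.718 to 0.832 for the 4 pairs), and the numbers were therefore taken as pairs. Cultures of unlike number ranged from −0.816 to 0.810, positive between cultures 1 and 2 and between 3 and 4 and negative across, and not every culture correlated best with its own number. With the replicate number as a block 919 genes (7.11%, of which 3.02% rose and 4.09% fell) passed and 3 chains did, with Col6a1 and Col6a2 lower and Col3a1 higher. DESeq2, without a block, called 84 genes (0.65%) and none of the chains.

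Col6a1 was at 114, 103, 64.0 and 106 CPM in control cultures 1 to 4 and at 82.5, 74.0, 61.4 and 56.6 CPM in m.11,944 cultures 1 to 4. It was lower in 4 of 4 pairs, with a blocked log2 fold change of −0.48 ± 0.12 (SE) and an edgeR adjusted p of 0.0680. Col6a2 was at 64.3, 60.1, 23.8 and 39.05 CPM in control and at 34.8, 32.3, 21.0 and 15.5 CPM in edited cultures. It too was lower in 4 of 4 pairs, by −0.83 ± 0.16 with an edgeR adjusted p of 0.0397. In both genes the third pair differed least. Without the block their log2 fold changes were −0.50 and −0.85 and their edgeR adjusted p values 1.0.

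Col3a1 was at 1540, 1508, 546 and 1526 CPM in control and at 2280, 2250, 956 and 1485 CPM in edited cultures. It was higher in 3 of 4 pairs, with a blocked log2 fold change of 0.48 ± 0.12 and an edgeR adjusted p of 0.0791. Cultures 3 of both groups were the lowest. Col4a2 was lower in 4 of 4 pairs, by 0.145 to 0.257 on the log2 scale, and just missed the threshold with the block (edgeR adjusted p = 0.103). Col18a1 did not separate by genotype (blocked log2 fold change −0.10 ± 0.17, edgeR adjusted p = 0.765) but by culture number. Control cultures 1 and 2 were at 902 and 986 CPM and cultures 3 and 4 at 299 and 311 CPM, and edited cultures were at 659, 682, 442 and 319 CPM.

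**Figure D5:**
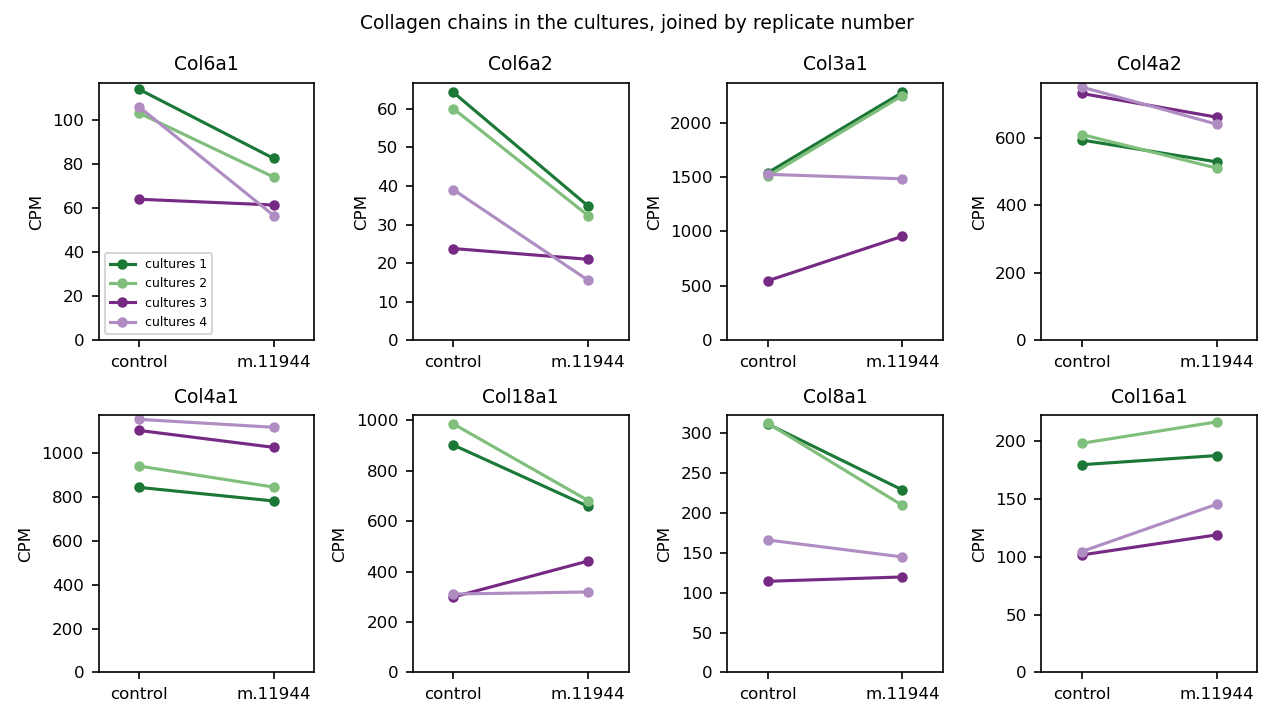
CPM of 8 collagen chains in 4 control and 4 m.11,944 60% cultures, with lines joining cultures of the same number. All 4 lines fall for Col6a1, Col6a2, Col4a1 and Col4a2. Cultures 1 and 2 lie above cultures 3 and 4 for Col18a1, Col8a1 and Col16a1 in both genotypes.

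The genes around the collagen chains were taken from 7 lists. Of their 75 genes tested, 4 (5.33%) passed in 60% against control tumors, beside 2.31% of all genes. In m.12,436 60% against control tumors, 1 of 18 modifying and folding genes rose and 0 fell, 2 of 7 procollagen processing genes fell, 1 of 12 basement membrane partners fell, and none passed among 10 fibril-associated genes, 12 genes of collagen breakdown, 8 receptors and 8 genes of TGF-beta and its targets. The median log2 fold change of these lists lay between −0.02 and 0.22, beside 0.00 over all genes. P3h2, which hydroxylates prolines mainly of type IV collagen, rose by 0.71 ± 0.18 (SE, edgeR adjusted p = 0.0704). Pcolce and Pcolce2, enhancers of procollagen C-terminal cleavage, had log2 fold changes of −0.31 ± 0.07 and −1.08 ± 0.27 (edgeR adjusted p = 0.0356 and 0.0614), and their groups did not overlap, as was so for 4.07% of all genes tested. Pcolce was at 372 to 423 CPM in control and 295 to 343 CPM in 60% tumors. Lama2, a laminin chain of muscle and nerve basement membrane, fell by 0.92 on the log2 scale ± 0.24 (edgeR adjusted p = 0.0763). All 4 lost the call without control tumor 1, without control tumor 3 and without control tumors 2 and 3 together (edgeR adjusted p from 0.337 to 0.464 for the last), with fold changes there of 0.68, −0.27, −1.09 and −1.02. Leaving out single 60% tumors ended the call for P3h2 (1, 2, 3 or 7), Pcolce2 (1 or 4) and Lama2 (1, 2, 3, 4 or 6), and leaving out control tumor 4 did so for Lama2.

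Against the 40% tumors, P3h2 was higher by 0.61 ± 0.15 (edgeR adjusted p = 0.0698), Itga1, the collagen-binding integrin chain that prefers type IV, by 0.51 ± 0.12 (0.0593) and Tgfb1, a chief inducer of fibrillar collagens, by 0.22 ± 0.06 (0.0841). That is 3 of 75 genes (4.0%), beside 1.81% of all genes. Leaving out single tumors ended the call in 7 of 14 fits for P3h2, 4 for Itga1 and 11 for Tgfb1, with fold changes of 0.50 to 0.69, 0.44 to 0.56 and 0.19 to 0.24. Itga1 was at 36.7 to 43.8 CPM in the 60% and 20.1 to 34.8 CPM in the 40% tumors, with no overlap between the groups, as had 0.623% of all genes tested. No gene of these lists passed for the 40% tumors against controls, nor for the cells without a block.

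Markers of other cell types were summed in each tumor. The 10 fibroblast markers summed to 2150 to 2649 CPM in control, 2325 to 3223 CPM in 60% and 1045 to 2906 CPM in 40% tumors, and to 59.4 to 91.2 CPM in control cells, where 7 of the 10 were under 1 CPM in every culture. One of them, Cd34, which endothelium also expresses and which was at 40.1 to 64.6 CPM in the control cultures, fell in the 60% tumors against control and against 40% tumors (log2 fold change −0.46 ± 0.12 and −0.45 ± 0.10, edgeR adjusted p = 0.0614 and 0.0407). Against control the call was lost without control tumor 1 or 3, 60% tumor 1 or 7, or control tumors 2 and 3 together (−0.29, edgeR adjusted p = 0.572), and against the 40% tumors only without 60% tumor 1 among single tumors left out (0.1001). None of the 9 endothelial, 9 pericyte and smooth muscle, 7 macrophage, 4 leukocyte, 6 skeletal muscle and 4 adipocyte markers passed in any of the 3 tumor comparisons. In 60% against control tumors all 9 endothelial markers had negative log2 fold changes (median −0.26), as had 7 of the pericyte and smooth muscle markers (median −0.20). Of the macrophage markers 5 had positive ones (median 0.16). The median over all genes was 0.00. The leukocyte markers summed to 60.2 to 105 CPM in control, 85.6 to 165 CPM in 60% and 58.6 to 110 CPM in 40% tumors. The 6 skeletal muscle markers, which tell of muscle in a fragment, ranged from 2.36 to 347 CPM within the 60% tumors. Among the melanocyte genes Pmel passed (−2.21 ± 0.51, edgeR adjusted p = 0.0456) but not without control tumor 3 (−0.56, 0.559) or without control tumors 2 and 3 (−0.02, 0.989), with control tumor 3 at 8.79 CPM and control tumors 1, 2 and 4 at 0.584, 1.47 and 0.700 CPM. What these markers have to do with Col24a1, Col13a1 and Col14a1 was not tested.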

How the data were processed

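RNA-seq counts per gene were used as deposited. The authors aligned reads to GRCm39 with STAR in 2-pass mode and counted them per Ensembl gene with featureCounts, giving raw counts without normalization. Of 47 sample columns, 26 were matched to samples and 21 were not used. Control columns were matched by name and number style. The columns named high and low were read as m.12,436 60% and 40% tumors, and those named 54 as m.11,944 60% cells, from words and headings in the study's source data and from the number of columns, not from sample labels. Libraries held 16475735 to 36173502 counts, and counting error limits chains with few reads. Columns of the same group were taken as replicates, and since the labels do not say that each came from a separate culture or animal, p-values measure only the spread between these samples. Cells and tumors were normalized separately by TMM and tested with edgeR 4.0.16 (quasi-likelihood, R 4.3.3), after edgeR's filter on low counts, with all 3 tumor groups in 1 fit and Benjamini-Hochberg adjustment over all genes tested (threshold 0.1). The scripts were tested on simulated data. DESeq2 1.42.0, limma 3.58.1, filters, a replicate block, leaving out libraries and canonical lengths were alternatives. Exact permutation tests (two-sided) used SciPy 1.17.1.

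In the cultures the 4 same-numbered pairs correlated at 0.718 to 0.832 in their deviations from the group means, so the numbers, which come from the labels, were taken to pair them, although cultures 1 and 2 and cultures 3 and 4 deviated together as well. Members and lists were chosen with earlier results of these data known. Named were chains past the threshold, the 3 with the smallest p per comparison, the 5 highest per length in control cells and control tumors, 12 abundant chains, and up to 2 genes per list and comparison. Col4a4, Col4a5, Col4a6, Col6a5, Col8a1, Col9a1, Col12a1, Col16a1, Col22a1, Col9a3, Col11a1, Col11a2, Cdh5, Dcn, Fap, Lum, Mfap5, Pdgfra and Thy1 were otherwise chosen after their values were seen.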

Additional observations from a re-analysis of the deposited data

Results flagged for a closer look

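In 76 groups of chains and samples, a single sample far from the others of its group was looked for with Dixon's test, which chance passes in about 1 of 20 groups, and 3 groups passed. Col3a1 in control culture 3 was at 546 CPM, whereas the other 3 cultures lay between 1508 and 1540 CPM. Col3a1 in m.12,436 40% tumor 2 was at 4957 CPM, against 7386 to 9146 CPM in the other 6. Col6a2 in m.12,436 60% tumor 5 was at 265 CPM, against 390 to 511 CPM in the other 6.

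Both tests of a difference between the loads of the m.12,436 edit that passed concern chains that cultured cells hardly express. For Col24a1 the difference between 60% and 40% tumors was −1.12 on the log2 scale (edgeR quasi-likelihood test, adjusted p = 0.0247), and for Col13a1 it was −0.89 (adjusted p = 0.0890). Against control tumors the same 2 chains had −1.10 and −0.32 at 60%, and 0.02 and 0.57 at 40%.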

How the results depend on the processing

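In m.12,436 60% against control tumors, the 2 chains called became 4 with DESeq2, 5 when the 2 groups were fitted alone, 1 at an adjusted p under 0.05 and 0 without control tumors 2 and 3, an alternative chosen after seeing the data, and 0 to 4 when single tumors were left out. Over all genes the 374 calls became 1056 with DESeq2, 943 with the 2 groups alone, 150 at 0.05, 20 without control tumors 2 and 3 and 66 to 724 without single tumors. Between 60% and 40% tumors, the 2 chains became 4 with DESeq2, 1 without a filter, with at least 10 counts in every sample or at 0.05, 0 with the replicate block, and 1 to 3 without single tumors, and the 293 calls over all genes became 744, 178, 301, 113, 266 and 108 to 452. For 40% against control tumors 0 chains passed in all 21 alternatives. In cells the 0 chains became 3 with the replicate block and stayed 0 when any culture was left out, and the 5 genes became 919 and 0. The cause of these shifts was not tested, except that a stricter threshold lowers counts by construction.

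Among the named chains, fold changes that changed sign against control tumors at 60% were those of Col1a1 (0.073 with the replicate block, −0.65 to 0.051 without single tumors), Col1a2 (0.18 and −0.45 to 0.085), Col5a2 (0.26 and −0.16 to 0.26, and 0.25 without control tumors 2 and 3), Col15a1 (−0.074 to 0.31) and Col18a1 (−0.084 to 0.0030 without single tumors). The cause was not tested. With the block 6 of the chains tested had the other sign in this comparison, Col9a3, Col11a1 and Col11a2 besides Col1a1, Col1a2 and Col5a2. Levels per kilobase in control tumors moved with the canonical transcript length to 1353 CPM for Col3a1, 359.8 for Col18a1 and 102.7 for Col1a2. In tumors the same replicate numbers did not pair the samples (mean correlations −0.156, −0.00581 and −0.0264 in the 3 comparisons), and the block gave 275 calls in place of 374, 178 of them higher in place of 156. With the block Col24a1 had an adjusted p of 0.142 between 60% and 40% tumors (edgeR). Of the alternative values for single chains and levels, 477 kept their direction and side of the threshold, 27 lost a call, 14 gained one, 14 changed sign and 3 levels moved by more than 1 SD. Chains with few reads, such as Col13a1 at 7 to 36 counts, are limited by depth.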
